A study of Mus musculus with 2 samples.

Results

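The genes described here encode 9 enzymes or enzyme subunits of the TCA cycle, out of 22359 protein-coding genes with 1 TSS each. They are Cs, Idh3a, Ogdh, Sucla2, Suclg1, Suclg2, Sdha, Sdhb and Mdh2. The set was chosen by name around Sucla2, and Sucla2 was selected on the same reads, because its annotated TSS had the largest Nsl1 over Msl1 read ratio of all TSSs with at least 100 reads of both libraries together within 2 kb. The Sucla2 ratio is therefore a description and supports nothing. Chromatin came from wild type (wt) mouse embryonic stem cells (mESCs) labelled E14, at passage 26, on the 129P2/OlaHsd background. It was cross-linked with formaldehyde, sheared to fragments of 200 to 500 bp and precipitated with the anti-Msl1 antibody 3208 or the anti-Nsl1 antibody 3130. The 2 groups share cells and genotype and differ in the antibody, but also in the library kit, which was NEXTFlex for Msl1 and NEBNext for Nsl1. Each antibody has 1 library, so no test between them was made, no replicate error exists, and a difference between the antibodies cannot be told apart from a difference between the libraries. No mock or Input library was used here.

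The TCA cycle runs in the mitochondrial matrix. It oxidises the acetyl group of acetyl-CoA to carbon dioxide and hands electrons to the respiratory chain, and all of its enzymes are encoded by nuclear genes. Msl1 and Nsl1 are the scaffold proteins of the MSL and the NSL complex, which share the histone acetyltransferase Mof. The MSL complex is known for acetylation of lysine 16 of histone H4, and the NSL complex is known to bind promoters of widely expressed genes.

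For Msl1, 23888517 aligned reads (50 bases each) were deposited, and for Nsl1 26084098 (36 bases each). Once repeats of a position and strand and mitochondrial reads had been dropped, 19483142 and 24883001 distinct reads were left. The local ratio is the read density within 500 bases of a TSS over the density from 5 to 50 kb on both sides of it in the same library. The ratio of the libraries, Nsl1 over Msl1, compares reads within 2 kb, each divided by the distinct reads of its library. All intervals are 95% intervals, exact Poisson for local ratios and exact conditional binomial for ratios of libraries. They cover counting error only, and those of local ratios take the local level as known. Over 14640 TSSs with at least 100 reads, the median Nsl1 over Msl1 ratio was 0.783 (log2 -0.35), so each ratio is also given relative to that median. At the embryonic stem cell genes Pou5f1, Nanog, Sox2, Zfp42 and Esrrb the local ratio reached 3 in 1 of 5 for Msl1 (32.6% of all TSSs) and in 0 of 5 for Nsl1 (34.2%). Within 2 kb 4 of 5 had an Msl1 over Nsl1 ratio of at least 2 (13.0% of all TSSs), and 3 of 5 did with the libraries scaled by the median ratio (4.34%). These reads do not measure expression.

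All 9 genes had at least 100 reads within 2 kb, from 127 at Suclg2 to 280 at Ogdh. The Nsl1 local ratio was at least 3 at 6 of the 9 genes, beside 34.2% of all 14640 TSSs. The Msl1 local ratio was at least 3 at 6 of the 9 genes as well, beside 32.6% of all TSSs. Both local ratios reached 3 at 5 of 9 genes (Suclg1, Sdha, Sdhb, Idh3a and Mdh2), beside 16.7% of all TSSs, and neither did at Ogdh and Suclg2. In a window of 1000 bases on each side the counts were 2 of 9 for Nsl1 and 3 of 9 for Msl1, beside 35.0% and 39.3% of the 7749 TSSs with at least 100 reads in that window (a filter not applied to the 9 genes), so in the wider window the set was not above the background. With a fold of 4 in place of 3 the counts were 2 of 9 for Nsl1, beside 22.0% of all TSSs, and 2 of 9 for Msl1, beside 13.6%. Both local ratios were called together at 0 of 9 genes in the wider window (16.2% of TSSs) and at 0 of 9 with the fold of 4 (5.45%). Sucla2, among those called for Nsl1 in each case, was selected for its Nsl1 reads. A ratio of the libraries of at least 2 was found at 1 gene, Sucla2, beside 1.46% of all TSSs, and this call was fixed by the choice of the set. The inverse ratio was at least 2 at 1 gene, Mdh2, beside 13.0% of all TSSs, and with the libraries scaled by the median ratio no gene was called in this direction. The median ratio of the 9 genes was 0.903 and their median local ratios were 3.56 for Nsl1 and 3.18 for Msl1, beside 2.21 and 2.38 over all TSSs.

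**Figure D1:**
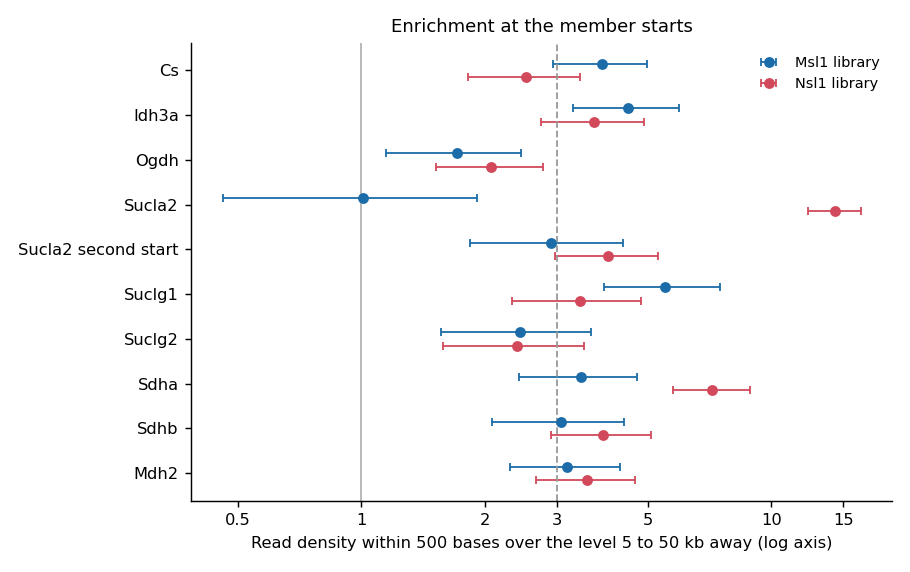
Local ratio of each gene on a log axis, with Msl1 in blue and Nsl1 in red and bars for the exact 95% Poisson intervals; the dashed line marks a ratio of 3. Sucla2 at its first start stands apart with 1.01 for Msl1 and 14.3 for Nsl1, while Sdha at 7.19 is the next in the Nsl1 library.

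Sucla2 encodes the ATP-forming beta subunit of succinyl-CoA synthetase, the enzyme that turns succinyl-CoA into succinate and conserves the energy as a nucleotide triphosphate. At its most 5′ annotated start, at position 73925126 of chromosome 14 of mm9 on the plus strand, 29 Msl1 reads and 220 Nsl1 reads lay within 2 kb. Within 500 bases the counts were 9 Msl1 reads and 181 Nsl1 reads. The Msl1 local ratio was 1.01 (0.461 to 1.92), so Msl1 reads there were at the level of the surrounding 50 kb. The Nsl1 local ratio was 14.3 (12.3 to 16.5), above that of 99.2% of all TSSs. The ratio of the libraries was 5.94 (4.02 to 9.08) within 2 kb, which is 7.59 times the median of all TSSs, and 15.7 (8.11 to 35.0) within 500 bases. Next in the order were Acsf3, at 4.66 (3.42 to 6.50) from 47 Msl1 and 280 Nsl1 reads, and Mpzl3, at 4.58 (3.39 to 6.29) from 51 Msl1 and 298 Nsl1 reads. The intervals of Sucla2 and of both of these genes overlap.

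This start belongs to the transcript Sucla2-005, which carries 13 annotated coding bases. The full coding transcripts Sucla2-001 and Sucla2-003 carry 1389 coding bases each, and Sucla2-001 starts 27346 bases further downstream, at position 73952472. The RefSeq start of Sucla2, placed on mm9 by an exact match of its promoter sequence (GRCm38.p6), lies 121 bases downstream of the Sucla2-001 start. At the Sucla2-001 start 77 Msl1 reads and 93 Nsl1 reads lay within 2 kb, and 23 and 49 within 500 bases. The ratio of the libraries was 0.946 (0.692 to 1.30) there, 1.21 times the median of all TSSs, so its direction turns with the scaling of the libraries. The local ratios were 2.90 (1.84 to 4.35) for Msl1 and 4.01 (2.96 to 5.29) for Nsl1. The Nsl1 reads that gave Sucla2 the largest ratio thus lay around the start of Sucla2-005, mostly upstream of it, and away from that of the full coding transcript. With the start of the longest coding sequence used for every gene, an alternative chosen after these values were seen, Acsf3 at 4.66 led the order, and 0 of the 9 TCA cycle genes had a ratio of at least 2, beside 1.44% of TSSs. In the whole annotation these 2 choices of start lay over 1 kb apart in 4.66% of genes and over 20 kb apart in 1.69%.

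**Figure D2:**
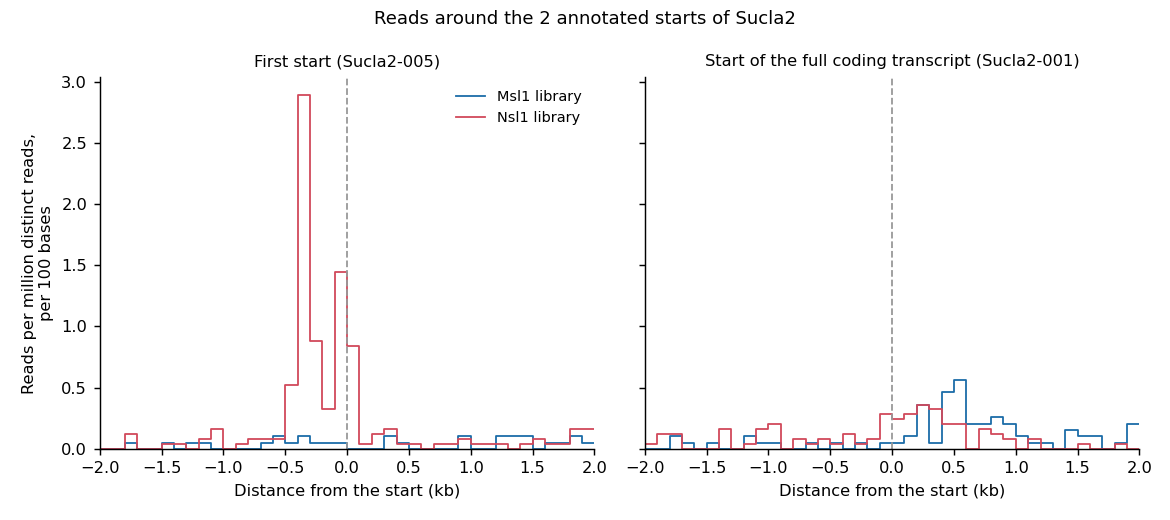
Distinct reads in bins of 100 bases, scaled to library size (RPM), within 2 kb of both Sucla2 starts, with Msl1 in blue and Nsl1 in red. The highest bin at the first start holds 72 Nsl1 reads and lies upstream of it, while no bin at the start of the full coding transcript holds more than 11 reads of either library.

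The Nsl1 reads at the first start formed a pair of maxima. From 500 to 201 bases upstream lay 107 of the 220 Nsl1 reads, and 72 of them fell from 400 to 301 bases upstream. The bin from 200 to 101 bases upstream held 8 reads, and the 200 bases around the start held 57. The Msl1 library had 4 reads, 1 read and 1 read in the same 3 stretches. Only 23.2% (17.8 to 29.3, exact binomial) of the Nsl1 reads within 2 kb lay downstream of this start.

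The stretch from 233 to 34 bases upstream of the Sucla2-001 start, chr14:73952239-73952438 of mm9 on the plus strand, is shown because it lies before the start of the full coding transcript. Within 2 kb upstream of that start lay 12 Msl1 reads and 40 Nsl1 reads. It holds none of the motifs described with the other promoters, so it has no capitals. Its GC content was 43.0%, with 4 CpG dinucleotides in 200 bases.
Sucla2 second start: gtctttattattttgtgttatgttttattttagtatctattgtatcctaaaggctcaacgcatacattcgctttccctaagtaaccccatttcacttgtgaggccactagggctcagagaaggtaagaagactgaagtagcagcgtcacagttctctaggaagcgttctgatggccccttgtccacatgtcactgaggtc

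Read length and repeated positions bear on these counts. Within 500 bases of the first Sucla2 start 84.4% of words of 36 bases and 87.4% of words of 50 bases occurred once in mm9, so slightly fewer positions there could take a uniquely placed read of 36 bases than 1 of 50. The words that occurred more than once were not located by bin, so their part in the pair of maxima was not tested. At the Sucla2-001 start all words within 500 bases occurred once for both lengths. Before repeated positions were removed the first start had 10 Msl1 and 223 Nsl1 reads within 500 bases, and 18.8% of the Nsl1 reads repeated a position and strand, beside 4.56% of the whole nuclear Nsl1 library. With all reads kept the ratio was 6.15 (4.38 to 8.84). The part of the library kit in these counts cannot be told apart from that of the antibody.

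Suclg1 encodes the alpha subunit that both forms of succinyl-CoA synthetase share. Its start, at 73198376 of chromosome 6 on the plus strand, had 87 Msl1 reads and 67 Nsl1 reads within 2 kb, and 39 and 32 within 500 bases. The Msl1 local ratio of 5.50 (3.91 to 7.51) was the highest of the 9 genes and above that of 97.1% of all TSSs. The Nsl1 local ratio was 3.41 (2.33 to 4.82), and the Nsl1 over Msl1 ratio was 0.603 (0.432 to 0.839), or 0.770 times the median. In the Msl1 library 69.0% (58.1 to 78.5) of the reads lay downstream of the start, and 65.7% (53.1 to 76.8) did in the Nsl1 library.

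Suclg2 encodes the GTP-forming beta subunit, the alternative partner of Suclg1. At its start, at 95668792 of chromosome 6 on the minus strand, 58 Msl1 reads and 69 Nsl1 reads lay within 2 kb, and 24 and 27 within 500 bases. The local ratios were 2.45 (1.57 to 3.64) for Msl1 and 2.41 (1.59 to 3.50) for Nsl1, and the ratio of the libraries was 0.931 (0.647 to 1.34), or 1.19 times the median. Suclg2 and Sucla2 encode the alternative beta subunits, and at the Sucla2-001 start the interval of the Nsl1 local ratio of Sucla2, 2.96 to 5.29, overlapped that of Suclg2. The higher Sucla2 value at the first start was selected and is no comparison. The start of another coding transcript of Suclg2, 59598 bases downstream, had 0 reads within 500 bases in both libraries, and 0% of the words of 36 or 50 bases there occurred once in mm9, so no uniquely placed read could fall there and nothing was measured at that start.

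Succinate dehydrogenase oxidises succinate to fumarate and passes the electrons to ubiquinone as complex II of the respiratory chain. Sdha encodes its flavoprotein, and its start lies at 74487728 of chromosome 13 on the minus strand. There 88 Msl1 reads and 119 Nsl1 reads lay within 2 kb, and 38 and 88 within 500 bases. The Nsl1 local ratio was 7.19 (5.76 to 8.85), above that of 93.5% of all TSSs, and the Msl1 local ratio was 3.43 (2.43 to 4.71). The intervals did not overlap. In the set this also held at the first start of Sucla2, which was selected for its Nsl1 reads. The share of all TSSs with such intervals apart was not counted, so no trait of the set is read from this. Within 500 bases the Nsl1 over Msl1 ratio was 1.81 (1.23 to 2.73), while within 2 kb it was 1.06 (0.797 to 1.41), or 1.35 times the median. From 300 bases upstream to 399 bases downstream lay 82 of the 119 Nsl1 reads (68.9%) and 30.7% of those of Msl1, so the Nsl1 reads of Sdha were the more concentrated at the start.

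Sdhb encodes the iron-sulphur subunit of the same enzyme. Its start, at 140517118 of chromosome 4 on the plus strand, had 85 Msl1 reads and 98 Nsl1 reads within 2 kb, and 31 and 52 within 500 bases. The local ratios were 3.08 (2.09 to 4.37) for Msl1, just over the threshold of 3, and 3.88 (2.90 to 5.09) for Nsl1. The ratio of the libraries was 0.903 (0.668 to 1.22), or 1.15 times the median. The highest Nsl1 bin, with 14 reads, lay from 100 to 199 bases downstream of the start and the highest Msl1 bin, with 8 reads, from 400 to 499 bases. Sdhb and Sdha encode subunits of 1 complex, and the interval of the Nsl1 local ratio of Sdhb lay below that of Sdha. The Sdha start lies 29 bases from that of the divergent gene Ccdc127, so the Sdha value is that of a shared start.

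Cs encodes citrate synthase, which joins acetyl-CoA and oxaloacetate at the entry of the cycle. At its start, at 127774888 of chromosome 10 on the plus strand, 127 Msl1 reads and 99 Nsl1 reads lay within 2 kb, and 59 and 42 within 500 bases. The Msl1 local ratio was 3.86 (2.94 to 4.98) and the Nsl1 local ratio was 2.53 (1.82 to 3.42), so Cs was the 1 gene of the set called for Msl1 alone. The ratio of the libraries was 0.610 (0.465 to 0.800), or 0.780 times the median. Of the Msl1 reads within 2 kb 77.2% (68.9 to 84.1) lay downstream of the start, beside 50.5% (40.3 to 60.7) of the Nsl1 reads.

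Idh3a encodes the catalytic subunit of the NAD-dependent isocitrate dehydrogenase. Its start, at 54434288 of chromosome 9 on the plus strand, had 100 Msl1 reads and 114 Nsl1 reads within 2 kb, and 47 and 50 within 500 bases. The local ratios were 4.47 (3.29 to 5.95) for Msl1 and 3.71 (2.75 to 4.89) for Nsl1, and the ratio of the libraries was 0.893 (0.676 to 1.18), or 1.14 times the median. The Msl1 reads lay mostly downstream, at 76.8% (67.2 to 84.7), beside 52.6% (43.1 to 62.1) of the Nsl1 reads.

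Ogdh encodes the decarboxylating E1 component of the oxoglutarate dehydrogenase complex. At its start, at 6191636 of chromosome 11 on the plus strand, 130 Msl1 reads and 150 Nsl1 reads lay within 2 kb, the most Nsl1 reads of the set after Sucla2. Within 500 bases there were only 29 and 46, and the local ratios were 1.71 (1.15 to 2.46) for Msl1 and 2.08 (1.52 to 2.77) for Nsl1. The reads were centred further downstream, as 49 Msl1 reads and 60 Nsl1 reads lay from 500 to 1099 bases after the start. A smaller Nsl1 maximum of 26 reads lay in the 300 bases before the start, where the Msl1 library had 4 reads. The ratio of the libraries was 0.903 (0.710 to 1.15), or 1.15 times the median. Ogdh and Mdh2 were the 2 genes whose Msl1 density from 501 to 2000 bases downstream of the first start exceeded that within 500 bases. The share of all TSSs for which this holds was not counted, so no trait of the set is read from it.

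Mdh2 encodes the mitochondrial malate dehydrogenase, which closes the cycle by oxidising malate to oxaloacetate. Its start, at 136254350 of chromosome 5 on the plus strand, had 171 Msl1 reads and 106 Nsl1 reads within 2 kb, and 44 and 53 within 500 bases. Its ratio of the libraries within 2 kb was 0.485 (0.377 to 0.622), or 0.620 times the median, the lowest of the set. Within 500 bases it was 0.943 (0.620 to 1.44), and the local ratios were close, at 3.18 (2.31 to 4.27) for Msl1 and 3.56 (2.67 to 4.66) for Nsl1. Msl1 reads outnumbered Nsl1 reads on both sides of the start, with 56 against 41 in the 2 kb upstream (the side of the divergent gene Styxl1) and 115 against 65 downstream. Of the latter, 76 Msl1 reads and 36 Nsl1 reads lay from 200 to 999 bases after the start. Up to 299 bases after the start the order was the opposite, with 8 Msl1 reads and 29 Nsl1 reads.

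**Figure D3:**
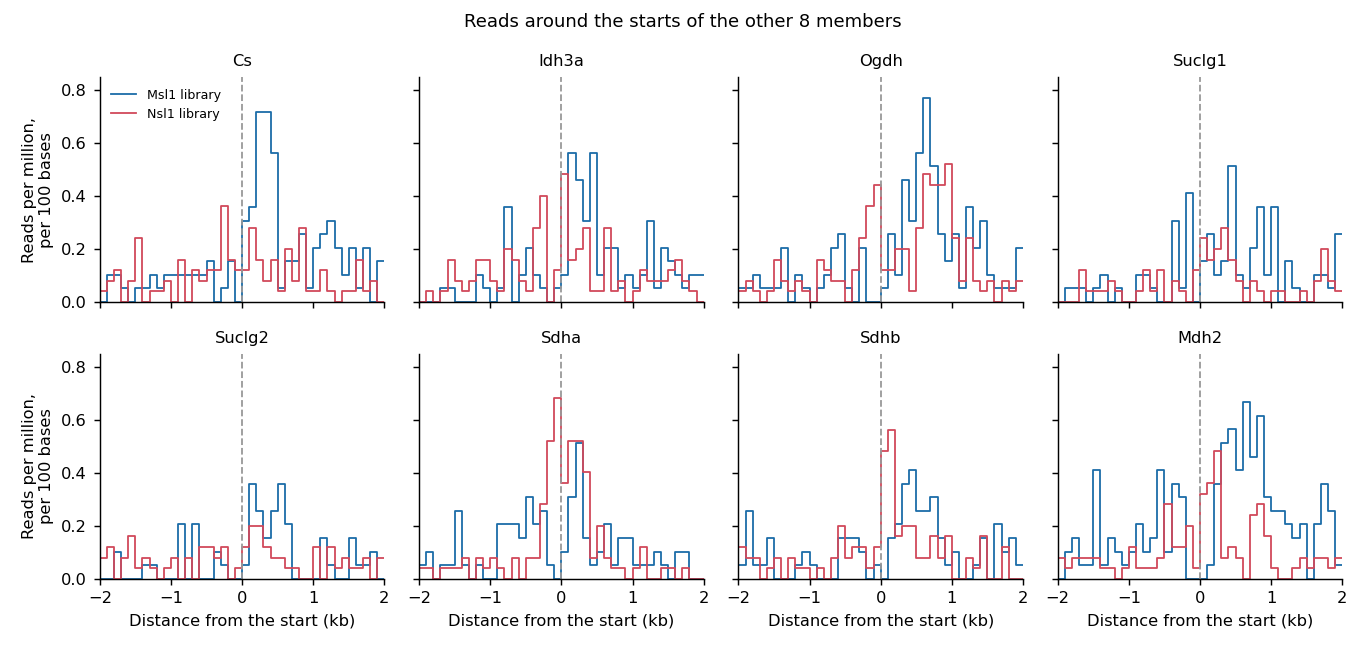
Distinct reads in bins of 100 bases, scaled to library size (RPM), within 2 kb of the starts of the other 8 genes, with Msl1 in blue and Nsl1 in red. Sdha has its highest Nsl1 bin, 17 reads, just upstream of the start, while the highest Msl1 bin lies downstream of the start at all 8 genes.

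Across the set the 2 libraries differed in where their reads lay. The downstream ratio is the density from 501 to 2000 bases downstream over the density within 500 bases of the start. It was higher for Msl1 than for Nsl1 at 9 of 9 genes, beside 72.4% of all TSSs. But the intervals of the 2 libraries were apart at only 3 genes, Sucla2, Sdha and Mdh2, and overlapped at the other 6. The share of all TSSs with intervals apart was not counted, so these 3 genes have no background. Sucla2 was selected on the total of reads that also form this ratio, though not on where they lay. Its place in both counts is therefore not independent of that choice and supports nothing. The median of the downstream ratio over the set was 0.616 for Msl1 and 0.390 for Nsl1, beside 0.808 and 0.548 over all TSSs. At Mdh2 it was 1.30 (0.897 to 1.92) for Msl1 from 86 reads and 0.390 (0.242 to 0.619) for Nsl1 from 31 reads. At Ogdh it was 1.73 (1.11 to 2.75) for Msl1 and 1.13 (0.776 to 1.67) for Nsl1, with overlapping intervals. At Sucla2 the Nsl1 value was 0.0774 (0.0468 to 0.122), the lowest of the set. More than 50% of the reads within 2 kb lay downstream of the start at 9 of 9 genes for Msl1, beside 78.9% of all TSSs, and at 8 of 9 for Nsl1, beside 55.3%. Sucla2 was the exception in the Nsl1 library. The intervals lay above 50% at 7 genes for Msl1 and at 4 for Nsl1. The share of all TSSs with such intervals was not counted, so these counts have no background.

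**Figure D4:**
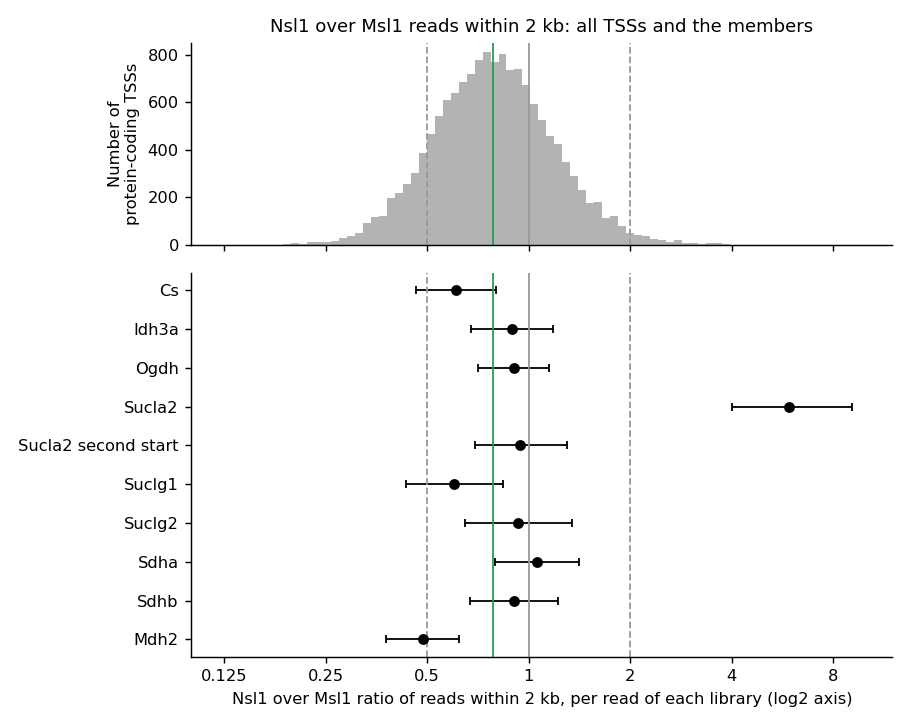
Nsl1 over Msl1 ratio of reads within 2 kb on a log2 axis, as a histogram over 14640 TSSs above and for each gene below with its exact 95% interval. The green line marks the median of all TSSs at 0.783, and every gene but Sucla2 at 5.94 and Mdh2 at 0.485 lies between the dashed lines at 0.5 and 2.

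In the order of the ratios Sucla2 led, followed by Sdha at 1.06, Suclg2 at 0.931, Ogdh at 0.903, Sdhb at 0.903, Idh3a at 0.893, Cs at 0.610, Suclg1 at 0.603 and Mdh2 at 0.485. Intervals of neighbours in this order overlapped throughout, apart from those of Sucla2 and Sdha. The intervals of Sdha, Suclg2, Ogdh, Sdhb and Idh3a included 1, and those of Cs, Suclg1 and Mdh2 lay below it. The median of all TSSs, 0.783, lay above the interval of Mdh2, below those of Sdha and Sucla2, and inside those of the other 6. Sucla2 was selected for its ratio. How often intervals over all TSSs leave out 1 or the median was not counted, so these placements have no background. At 4 genes, Suclg2, Sdhb, Idh3a and Ogdh, the ratio was below 1 as counted and above 1 relative to the median, so no direction is given for them. The Nsl1 local ratio was above the Msl1 one at 5 of 9 genes, beside 52.7% of all TSSs.

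Gene bodies were counted from 2 kb after the start of the longest coding transcript to its end. At the starts of the longest coding sequences, which leave out the selected Sucla2 value, the ratio of the libraries ran from 0.485 to 1.06. In the bodies it lay between 0.507 (0.404 to 0.634) at Mdh2 and 0.895 (0.733 to 1.09) at Sdhb, beside a median of 0.874 over 14916 genes with at least 100 reads in the body. For Sucla2 it was 0.794 (0.683 to 0.924) from 347 Msl1 and 352 Nsl1 reads over 41.5 kb. Scaled by length and by the distinct reads of the library, the Sucla2 body had a density of 0.429 RPKM for Msl1 and 0.341 RPKM for Nsl1, the lowest of the 9 genes in both. The highest Msl1 body density, 1.06 RPKM, was at Mdh2, and the highest Nsl1 body density, 0.714 RPKM, was at Ogdh. The Msl1 excess at Mdh2 thus continued over its 9.91 kb body, where 204 Msl1 reads and 132 Nsl1 reads lay.

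The profile most like that of Sucla2 at its first start, by Pearson r over 80 bins of both libraries, was that of Dhx38 (r = 0.946), an RNA helicase gene of splicing. It was followed by Chchd5 (0.868), Gtf2h1 (0.857), a subunit gene of the transcription factor TFIIH, Neurl2 (0.834) and Mdh1b (0.814). These bins share the depth of 2 libraries, and r is a description. All 5 had high Nsl1 local ratios, from 7.80 at Neurl2 to 18.5 at Dhx38, with ratios of the libraries from 1.42 to 2.52. High Nsl1 values follow from the match to a profile selected for its Nsl1 reads, and they support nothing. Among the other 8 TCA cycle genes r was between -0.02 at Mdh2 and 0.262 at Sdha, beside a median of 0.0487 over all TSSs.

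The other genes of the pathway were counted by list, and all listed genes were found, 33 of 35 outside glycolysis and 15 of 16 in it with at least 100 reads within 2 kb. In the rest of the cycle, 13 of 14 genes had a Nsl1 local ratio of at least 3 and 9 of 14 a Msl1 one. Among genes with at least 100 reads the counts for pyruvate entry were 6 and 6 of 11, among side reactions and carriers 4 and 5 of 8, and in glycolysis 1 and 4 of 15. The same share over all TSSs was 34.2% for Nsl1 and 32.6% for Msl1. Over all listed genes, without a filter on reads, the median ratio of the libraries was 0.905 in the rest of the cycle and 0.800 in pyruvate entry. It was 0.607 among side reactions and carriers and 0.542 in glycolysis. The list of the rest of the cycle also holds genes beside the mitochondrial cycle itself, namely the cytosolic enzymes Idh1, Mdh1 and Aco1, the NADP-dependent Idh2 and the assembly factors Sdhaf1 and Sdhaf2. Its median ratio was close to the 0.903 of the 9 genes, and that of glycolysis lay below both, with a ratio of 0.5 or less at 7 of 15 genes with at least 100 reads, beside 13.0% of all TSSs. With the libraries scaled by the median ratio 0 glycolysis genes had such a ratio, beside 4.34% of all TSSs, and the lowest was 0.530.

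Of the 35 genes outside glycolysis, 33 of them with at least 100 reads, 1 had a ratio of at least 2, beside 1.46% of all TSSs. This was Dld, the dihydrolipoamide dehydrogenase that the oxoglutarate and the pyruvate dehydrogenase complexes share, with 66 Msl1 and 182 Nsl1 reads within 2 kb and a ratio of 2.16 (1.62 to 2.91). Its local ratios were 2.68 (24 reads) for Msl1 and 12.8 (136 reads) for Nsl1, so Dld was called for Nsl1 alone. Of the 35 genes, 24 were called for Nsl1 and 17 in both libraries, so a call for Nsl1 alone was not particular to Dld. Among the 33 genes with at least 100 reads, 23 were called for Nsl1. Over TSSs with at least 100 reads the shares were 34.2% for Nsl1 and 16.7% for both. The count of 17 is over all 35 genes, without that filter. Next in the ratio were Sdhc, a membrane anchor of succinate dehydrogenase, at 1.33 (0.966 to 1.83), and Fh1, the fumarase gene, at 1.31 (0.936 to 1.85). The highest Nsl1 local ratios after Dld were those of Sdhd, the other membrane anchor, at 8.31 from 100 reads, and of Idh3g, a regulatory subunit beside Idh3a, at 7.13 from 51 reads. The lowest ratios were those of Glud1, glutamate dehydrogenase, at 0.363 (0.269 to 0.485), Pdha1, the E1 alpha subunit of pyruvate dehydrogenase, at 0.384 (0.233 to 0.620) from 82 reads, and Idh2 at 0.455 (0.335 to 0.613). The highest Msl1 local ratios were 6.14 at Sdhd, 4.67 at Got2, the mitochondrial aspartate aminotransferase, and 4.54 at Pdp1, a pyruvate dehydrogenase phosphatase.

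**Figure D5:**
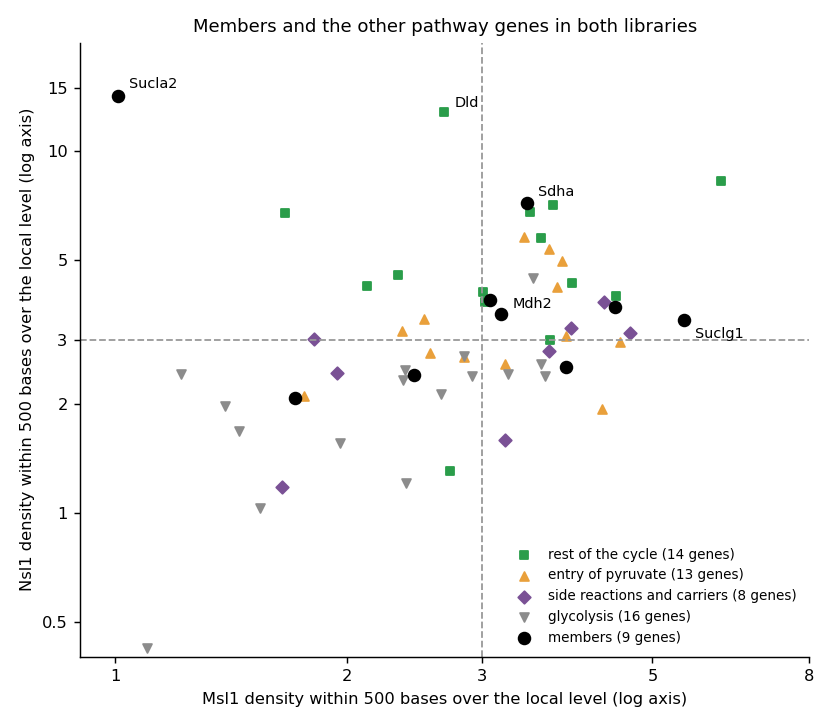
Msl1 local ratio against Nsl1 local ratio on log axes, 1 point per gene, for the 9 genes (black) and the lists of the rest of the cycle, pyruvate entry, side reactions and carriers, and glycolysis; dashed lines mark 3. Sucla2 at 14.3 and Dld at 12.8 lie highest in the Nsl1 ratio with Msl1 ratios of 1.01 and 2.68.

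The starts of 2 of the 9 genes are shared with a divergent gene. Sdha lies 29 bases from the start of Ccdc127 and Mdh2 lies 95 bases from that of Styxl1, both on the opposite strand, so that reads upstream of Sdha and Mdh2 lie in those genes and the sources cannot be told apart. The bases between the starts are shown with those upstream of Suclg1, the gene with the highest Msl1 local ratio, and of Ogdh and Idh3a, whose reads lay at different distances from the start. All are from mm9 on the strand of the gene, and end 1 base before the start: chr13:74487729-74487756 for Sdha, chr5:136254256-136254349 for Mdh2, chr6:73198176-73198375 for Suclg1, chr11:6191436-6191635 for Ogdh and chr9:54434088-54434287 for Idh3a. Capitals mark matches to the motifs listed in the next paragraph.
Sdha: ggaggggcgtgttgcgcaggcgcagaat
Mdh2: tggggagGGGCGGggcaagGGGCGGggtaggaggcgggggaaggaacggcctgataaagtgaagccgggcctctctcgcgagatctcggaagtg
Suclg1: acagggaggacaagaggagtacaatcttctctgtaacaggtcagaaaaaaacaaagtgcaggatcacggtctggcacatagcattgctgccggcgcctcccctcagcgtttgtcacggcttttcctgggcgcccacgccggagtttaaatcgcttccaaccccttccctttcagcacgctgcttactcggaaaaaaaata
Ogdh: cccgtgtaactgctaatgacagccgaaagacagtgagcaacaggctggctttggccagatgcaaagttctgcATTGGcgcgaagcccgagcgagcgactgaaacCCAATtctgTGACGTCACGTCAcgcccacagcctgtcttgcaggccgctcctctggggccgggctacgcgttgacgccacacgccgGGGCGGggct
Idh3a: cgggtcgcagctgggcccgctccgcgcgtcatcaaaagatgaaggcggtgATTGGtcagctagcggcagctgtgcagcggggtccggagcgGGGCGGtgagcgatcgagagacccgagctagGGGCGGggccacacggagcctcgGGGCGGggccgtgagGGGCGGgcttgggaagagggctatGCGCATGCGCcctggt

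From 250 bases before to 50 bases after the first start, 7 motifs were searched on both strands. Shares are given over all 22359 promoters of the same length and then over those with at least 100 reads, as all 9 genes have. The GC box GGGCGG was present at 7 of 9 genes, beside 44.0% and 60.7%, and the CCAAT box CCAAT at 6 of 9, beside 37.9% and 36.9%. The ETS motif CCGGAAG was present at 3 genes, beside 10.9% and 15.4%, and the CRE motif TGACGT at 3, beside 8.59% and 10.9%. The NRF1 motif GCATGCGC was present at 2 genes, Sdhb and Idh3a, beside 3.36% and 4.79%, and in Idh3a its 2 matches overlap on opposite strands. The YY1 motif AAGATGGC was present at 1 gene, Suclg2, beside 3.28% and 3.86%, and the TATA box TATAAA at 1 gene, Sucla2, beside 13.4% and 7.51%. Sucla2 at its first start and Suclg1 had neither a GC box nor a CCAAT box in this window, and Suclg1 had none of the 7 motifs. The same window at the Sucla2-001 start held 1 GC box and none of the other motifs, so no TATA box. A match is a description of letters and not a site of binding.

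Within 500 bases of the start the GC content of the 9 genes ran from 46.3% at the first Sucla2 start to 66.4% at Suclg2, beside a median of 58.7% over TSSs with at least 100 reads. The observed over expected CpG content ran from 0.636 at Sdhb to 0.943 at Ogdh, beside a median of 0.706. Sucla2 thus had the lowest GC content of the set and a CpG content of 0.804, above that median. At the Sucla2-001 start the GC content was 60.0% and the CpG content 0.745.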

How the data were processed

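Reads of 1 Msl1 and 1 Nsl1 ChIP-seq library of wild type mESCs were analysed. The authors aligned them to mm9 with Bowtie 0.12.7 after CASAVA 1.8.2, kept unique reads, and deposited each read's position, strand and score without normalization. The deposited score was 255 on every line and was not used. Columns of other samples numbered 0. Repeats of a position and strand made up 18.3% of nuclear Msl1 reads and 4.56% of nuclear Nsl1 reads and were removed; such repeats and PCR affect counting intervals. Each read was moved to the middle of its library's fragment length (211 bases for Msl1, 132 for Nsl1), read from the strand cross-correlation on 3 chromosomes. A gene's TSS was the most 5′ start of its protein-coding transcripts in GENCODE vM1 on mm9. Calls were a local ratio of at least 3 and a ratio of the libraries of at least 2 in either direction. Words of read length were matched exactly to the genome on both strands. Python 3.11.15, numpy 2.4.6, pandas 2.3.3, scipy 1.17.1 and matplotlib 3.10.9 were used, and the counting was tested on simulated data.

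Members and lists were chosen with earlier results of these data known. Text names all 9 genes, the 3 highest and 3 lowest other pathway genes by ratio and the 3 highest by each local ratio, genes with a start within 1 kb of a member, the 5 profiles most like that of Sucla2 and the 2 TSSs after it in ratio.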

Additional observations from a re-analysis of the deposited data

How the results depend on the processing

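A window of 1000 bases was used for the local ratios and the ratios of the libraries, and not for the downstream ratio. With it, 2 of the 9 genes had a Nsl1 local ratio of at least 3 and 3 a Msl1 one (35.0% and 39.3% of TSSs). The count with a ratio of the libraries of 0.5 or less was 0 (18.4%), and the Sucla2 ratio was 10.8. With the libraries scaled by the median ratio that count was also 0 (4.34%). With a fold of 4 for the local ratio, 2 genes were called for Nsl1 and 2 for Msl1 (22.0% and 13.6% of TSSs), and with a fold of 1.5 between libraries 3 genes had more Msl1 reads (34.5%). With the start of the longest coding sequence, chosen after seeing the data, 0 genes had a ratio of at least 2 (1.44% of TSSs) and that of Sucla2 was 0.946, below 1 with an interval (0.692 to 1.30) that includes it; the 2 starts are different places in the genome. The other alternatives (all reads kept, local level from 10 to 100 kb, start shared by the most transcripts, reads moved by 100 bases) left every count within 1.5 times. Of 234 single values recomputed, 222 stayed within their counting intervals, 11 moved outside and 1, the called Sucla2 ratio, crossed 1. All 45 values with the start shared by the most transcripts equalled the main values. So did most with the start of the longest coding sequence, and such equal values are no check of stability. Ratios that were not called crossed 1 in 6 further cases: Suclg2, Sdhb, Idh3a and Ogdh under median scaling, and Sdhb and Ogdh in the window of 1000 bases. No paired analysis was possible because each antibody has 1 library. With 9 to 59 Msl1 reads and 27 to 181 Nsl1 reads within 500 bases of a first start, small differences between genes were not detectable at this depth.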
